A study of Homo sapiens with 12 samples.

Results

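The response to loss of METTL5 was compared between HCC-LM3 and Huh-7, 2 human hepatocellular carcinoma cell lines, with all 12 RNA-seq libraries of the study (12 of 12, in 4 groups of 3). The quantity described is the line-by-genotype interaction of each gene: the log2 change from wild type (WT) to knockout (KO) in HCC-LM3 minus the same change in Huh-7. A positive interaction means that the knockout effect was higher in HCC-LM3, and a negative one that it was higher in Huh-7. HCC-LM3 is a line of high metastatic potential, and Huh-7 is a line derived from a well differentiated liver tumour. The WT groups of both lines were untreated. The KO groups of both lines received a METTL5 guide RNA by infection, and the labels name no control guide, no clone and no time after infection, so each KO group differs from its WT group by the infection as well as by the gene. Each group has 3 numbered libraries, and since no label states whether these are independent cultures, the tests reflect library-to-library spread, which may be technical. Of 58884 genes in the table, 16537 had enough counts to be tested.

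METTL5 is the methyltransferase that, with its activating partner TRMT112, places the N6-methyladenosine (m6A) mark on a single adenosine of 18S ribosomal RNA, in the decoding part of the small ribosomal subunit. The known substrate of METTL5 is thus ribosomal RNA, while the libraries here report RNA levels gene by gene. Liver cancer cells rely on high ribosome output, and lines of this tumour type keep hepatocyte programmes to very different degrees.

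The libraries held 17495280 to 26415554 counts. METTL5 had 0 counts in all 6 KO libraries, against a WT mean of 8.99 ± 0.814 CPM (counts per 1e6 counts; SD, n = 3) in HCC-LM3 and 9.51 ± 1.55 in Huh-7. Against a floor of 3 counts per library the drop was at least 95.6-fold in the first line and at least 29.3-fold in the second, so the interaction of METTL5 itself has no usable value. TRMT112 had 126, 90.7 and 95.5 CPM in HCC-LM3 WT and 108, 113 and 126 in HCC-LM3 KO, which overlapped. In Huh-7 it had 246, 268 and 234 CPM in WT and 1031, 1013 and 940 in KO, and its interaction was -1.85 ± 0.15 (SE; adjusted p = 2.49e-12 in edgeR's quasi-likelihood test with Benjamini-Hochberg adjustment, used throughout) and -0.71 with the GC and length offsets described below. The Huh-7 KO libraries stood apart: their 100 most abundant genes took 48.2% to 48.7% of counts, against 35.0% to 35.8% in Huh-7 WT and 24.8% to 28.3% in HCC-LM3. CPM values here are scaled by TMM factors, which were 1.27 to 1.51 in HCC-LM3, 1.06 to 1.10 in Huh-7 WT and 0.491 to 0.51 in Huh-7 KO, so a CPM is a level relative to most genes and not a share of the library. Hepatocyte markers (8 genes) summed to 60.7 to 110 TPM in HCC-LM3 and to 6254 to 10238 TPM in Huh-7, and APOB and TTR were at 0 in every HCC-LM3 library.

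The interaction passed an adjusted p of 0.05 in 10186 genes (61.6% of those tested), of which 6233 were positive (37.7%) and 3953 negative (23.9%). It also reached an absolute log2 value of 1 in 7631 genes (46.1%). HCC-LM3 KO differed from WT in 4440 genes (26.8%), with 2308 higher (14%) and 2132 lower (12.9%), and 282 of these (1.71%) changed at least 2-fold. The HCC-LM3 count was 2832 without HCC-LM3 WT 2, 2743 without WT 3 and 6136 without WT 1. The TMM factor of WT 1 was 1.33, against 1.49 in WT 2 and 1.51 in WT 3. Huh-7 KO differed from WT in 12399 genes (75%), with 5247 higher (31.7%) and 7152 lower (43.2%), and 9313 of them (56.3%) changed at least 2-fold. KO and WT CPM did not overlap for 38.7% of genes in HCC-LM3 and for 76.5% in Huh-7.

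Most called interactions were therefore changes of Huh-7. The log2 effects had an SD over genes of 0.60 in HCC-LM3 and 1.82 in Huh-7. Across the 16537 genes the effects of the 2 lines had a Pearson correlation of 0.19 and a Spearman correlation of 0.27, given as a description since genes are not independent and share their libraries. Of the 8693 genes that passed only in Huh-7, 6831 had a called interaction, and of the 734 that passed only in HCC-LM3, 278 did. Among genes that moved the same way in both lines, 2004 had a called interaction, and the change was larger in Huh-7 for 1991 of them and larger in HCC-LM3 for 13. How positive and negative calls divided depended on scaling: DESeq2 size factors gave 4893 positive and 5103 negative, and library totals alone gave 9504 and 1574, with a median interaction of 1.32 in place of 0.39. The DESeq2 Wald test gave 4821 and 5124. Where a line barely transcribes a gene the interaction has little to read: none of the 503 genes at 0 counts in all HCC-LM3 libraries was called, and 78.1% of the 11371 genes with at least 1 CPM in some group of each line were.

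**Figure D1:**
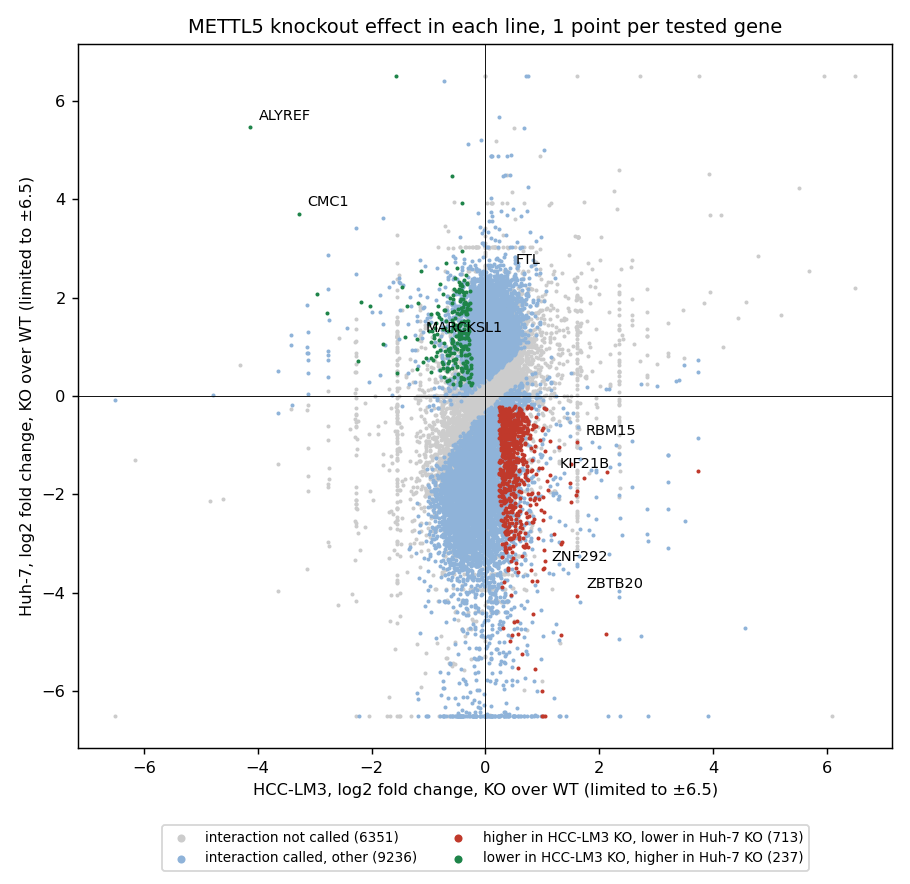
Log2 fold change of KO over WT in HCC-LM3 (horizontal axis) and Huh-7 (vertical axis), 1 point per tested gene, with values beyond 6.5 drawn at the edge. The cloud is tall and narrow, with an SD of 0.60 across and 1.82 up. Red points (713 genes) were higher in HCC-LM3 KO and lower in Huh-7 KO, and green points (237 genes) the reverse.

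The interaction followed the deposited gene length and the base composition of the transcript. The length is 1 deposited value per gene, and whether it matches the transcripts made in these cells was not tested. It was 6033 bases for CMC1, 6010 for YIPF6 and 4441 for EEF1A1, and their offset values below depend on it. Genes of 500 to 1000 bases had a median interaction of -1.34, and genes of 6000 bases or more had a median of 1.93. The medians in HCC-LM3 stayed between -0.05 and 0.07 over the length classes, while those in Huh-7 went from 1.59 in the shortest class to -2.04 in the longest. By GC content both lines had lower values in AT-rich genes, with medians of -0.41 in HCC-LM3 and -2.07 in Huh-7 below 38% GC and of 0.31 and 0.75 from 62% GC. A fit with per-library offsets for GC content and length, named the offsets below, brought the length medians of the interaction to between -0.20 and 0.28 and called 8112 interactions, 4312 positive and 3800 negative. Under the offsets the correlation of the effects of the 2 lines across genes was 0.02. All 3 Huh-7 KO libraries share the shift, so technical and biological sources of it cannot be told apart, and offset values are given below where they move a result.

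**Figure D2:**
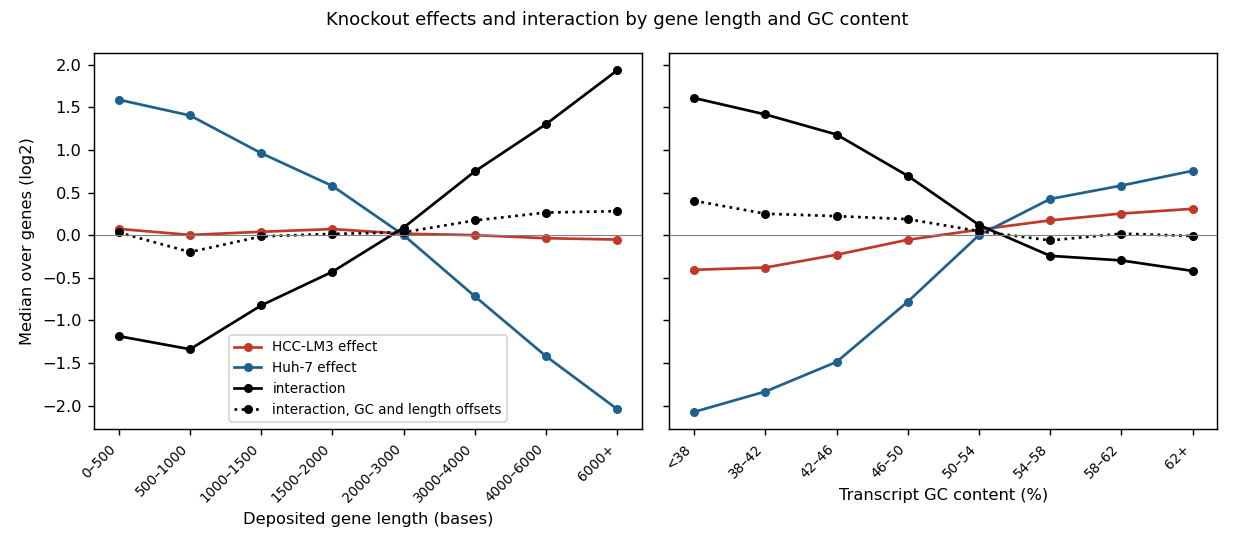
Median log2 values over tested genes in classes of deposited gene length (left) and transcript GC content (right) for the HCC-LM3 effect, the Huh-7 effect, their difference, and the difference with offsets (dotted). By length the difference is -1.18 in the shortest class, -1.34 in the next and 1.93 in the longest, and between -0.20 and 0.28 with offsets. By GC content the difference with offsets reaches 0.40 below 38%.

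Genes moving in opposite directions numbered 950 (5.74% of those tested), all with a called interaction. In 713 (4.31%) the transcript rose in HCC-LM3 KO and fell in Huh-7 KO, and in 237 (1.43%) it fell in HCC-LM3 KO and rose in Huh-7 KO. The first class was long and GC-rich, with a median length of 4583 bases and 57.0% GC. The second was short, with 1835 bases and 48.9% GC, against 2745 bases and 50.5% over all tested genes. The changes were mostly modest in HCC-LM3: the medians were 0.44 in HCC-LM3 and -1.19 in Huh-7 for the first class, and -0.47 and 1.24 for the second. Both changes reached 2-fold in 29 genes of the first class and 14 of the second. With the offsets 405 of the 950 kept their class, and 129 of the 713 and 37 of the 237 kept it in all 22 alternative fits. As the choice of these genes fixes the sign of their interaction, the values below describe them and test nothing further.

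Among genes higher in HCC-LM3 KO and lower in Huh-7 KO, KIF21B, a kinesin motor that walks along microtubules, had 12.8, 15.9 and 12.9 CPM in HCC-LM3 WT and 32.8, 30.6 and 28.4 in KO. In Huh-7 it had 16.8, 13.6 and 21.7 CPM in WT and 4.93, 5.36 and 6.81 in KO, and the interaction was 2.74 ± 0.22 (SE; adjusted p = 2.23e-12). The lines started at similar levels, separated cleanly in opposite directions, and KIF21B kept its class in all alternatives. RBM15, an adaptor that brings the mRNA m6A writer complex to its targets, had 7.73, 7.99 and 10 CPM in HCC-LM3 WT and 27.3, 26.1 and 24.9 in KO, a log2 change of 1.60 ± 0.13. In Huh-7 RBM15 went from 12.4, 14.2 and 14.9 CPM to 7.79, 8.16 and 5.6, a change of -0.94 ± 0.16, and its interaction was 2.55 (adjusted p = 8.96e-13) and 2.03 with offsets. All 3 HCC-LM3 KO libraries exceeded every other library for RBM15. Its antisense neighbour RBM15-AS1 overlaps it, and reads of the 2 genes may be mixed because the strand setting is not given.

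Several named genes encode DNA-binding proteins. NR6A1, an orphan nuclear receptor of early development, had 5.13, 5.64 and 5.22 CPM in HCC-LM3 WT and 11.6, 9.93 and 9.11 in KO. In Huh-7 NR6A1 fell from 49.9, 56.0 and 57.9 CPM to 14.3, 10.5 and 13.4, with an interaction of 3.03 ± 0.18 (adjusted p = 2.07e-15) and 1.92 with offsets. The Huh-7 WT level of NR6A1 was the highest of the 4 groups, and its KO level came close to that of HCC-LM3 KO. ZBTB20, a repressor that helps to silence alpha-fetoprotein in adult liver, had 0.761, 0.783 and 0.580 CPM in HCC-LM3 WT and 2.14, 2.93 and 1.52 in KO. In Huh-7 ZBTB20 fell from 18.6, 19.7 and 17.5 CPM to 0.690, 0.932 and 1.76, and the interaction was 5.66 ± 0.37 (adjusted p = 1e-14). Here the groups did not overlap within either line, although the HCC-LM3 levels were low. ZNF292, a very long zinc finger gene, had 3.49, 5.46 and 6.78 CPM in HCC-LM3 WT and 7.92, 14.7 and 9.08 in KO, against 12.8, 13.4 and 11.9 in Huh-7 WT and 0.986, 0.583 and 1.76 in KO. Its interaction of 4.51 ± 0.47 became 2.26 with offsets, and without HCC-LM3 WT 2 its HCC-LM3 change no longer passed. ZNF646 (1.97) and ZNF91 (2.48) had smaller interactions, which were 1.12 and 0.87 with offsets, and with offsets the Huh-7 change of ZNF91 was 0.36 in place of -1.59.

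SH3PXD2B, a scaffold of the podosomes with which cells degrade matrix, had 4.37, 4.60 and 5.07 CPM in HCC-LM3 WT and 10.1, 7.97 and 8.93 in KO. In Huh-7 SH3PXD2B went from 30.4, 27.1 and 42.8 CPM to 12.3, 13.3 and 10.7, with an interaction of 2.41 ± 0.22 and 1.16 with offsets. CRISPLD2, a secreted protein, rose from 18.4, 18.7 and 19.6 CPM to 36.8, 38.8 and 37.4 in HCC-LM3, while its Huh-7 levels stayed near 1 CPM or below in every library. Its interaction was 2.46 ± 0.40, and its opposite class was lost in the DESeq2 Wald test. RNF157, a ubiquitin ligase, had an interaction of 1.86 ± 0.28 (1.14 with offsets), and its HCC-LM3 change, from 0.856, 0.601 and 0.367 CPM to 1.30, 1.31 and 0.926, did not pass without HCC-LM3 WT 3. The 2 remaining named genes rested on few counts in HCC-LM3. WNK2, a kinase that restrains growth signalling, had 0 counts in every HCC-LM3 WT library and 1, 2 and 3 counts in KO, so no fold is given for that line, against 47.6, 40.6 and 56.0 CPM in Huh-7 WT and 14.8, 17 and 18.2 in KO. Its HCC-LM3 call was lost without HCC-LM3 WT 1, WT 2, WT 3 or KO 3. TFPI, an inhibitor of the tissue factor pathway of clotting, had 1, 4 and 3 counts in HCC-LM3 WT and 8, 4 and 10 in KO, fell from 26.5, 28.1 and 29.1 CPM to 8.68, 10 and 5.93 in Huh-7, and had an interaction of 3.26 ± 0.57. Its opposite class was lost in 9 alternatives, among them the offsets.

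In the reverse class, ALYREF, an adaptor that couples spliced mRNA to the nuclear export machinery, had 120, 90.1 and 96.2 CPM in HCC-LM3 WT and 5.96, 6.48 and 5.02 in KO, a log2 change of -4.13 ± 0.12. In Huh-7 ALYREF had 10.7, 11.8 and 12.6 CPM in WT and 513, 537 and 499 in KO, a change of 5.47 ± 0.13. The interaction was -9.60 ± 0.18 (adjusted p = 2.02e-29) and -8.34 with offsets, and every library of the higher group in each line exceeded every library of the lower group more than 10-fold. ANAPC11, a subunit of the anaphase-promoting complex that overlaps ALYREF on the other strand (chosen after its values were seen), had mean levels of 55.5 CPM in HCC-LM3 WT and 54.1 in KO, and of 168 in Huh-7 WT and 599 in KO. Reads at the shared stretch may be assigned to either gene.

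CMC1, an assembly factor of cytochrome c oxidase, showed the same shape at lower levels. It had 13.8, 12.1 and 12 CPM in HCC-LM3 WT and 1.30, 1.45 and 1.14 in KO, and in Huh-7 1.61, 2.23 and 1.98 in WT and 26.1, 23.0 and 26.3 in KO. Its interaction was -6.98 ± 0.24 (adjusted p = 4.02e-21) and -8.76 with offsets. WT Huh-7 and KO HCC-LM3 were both low for CMC1, as they were for ALYREF, and the other groups were both high. The gene AZI2 overlaps CMC1 and was seen to have other values (chosen after they were seen): its means were 9.58 and 8.10 CPM in HCC-LM3 WT and KO and 7.12 and 1.61 in Huh-7 WT and KO.

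The other named genes of this class moved less in HCC-LM3, by -0.74 to -1.20 on the log2 scale. MARCKSL1, an actin-binding regulator of cell shape, had 94.1, 77.3 and 75.9 CPM in HCC-LM3 WT and 34.9, 35.1 and 37.5 in KO, against 309, 318 and 290 in Huh-7 WT and 701, 699 and 653 in KO. The interaction of MARCKSL1 was -2.36 ± 0.14 (adjusted p = 9.49e-16) and -1.45 with offsets, under which its Huh-7 change was 0.02 and the opposite class was lost. PDXP, the phosphatase of pyridoxal phosphate and cofilin, had 19.2, 17.8 and 16.2 CPM in HCC-LM3 WT and 9.94, 10.2 and 9.92 in KO, and 42.7, 39.8 and 43.9 in Huh-7 WT and 146, 150 and 151 in KO. PDXP kept its class in all alternatives, with an interaction of -2.65 ± 0.13. ANKRD54, an ankyrin repeat protein, did so too, from 21.1, 16.9 and 17.4 CPM to 11, 10.7 and 11.4 in HCC-LM3 and from 17.1, 15.8 and 20.5 to 78.8, 75.2 and 69.3 in Huh-7, with an interaction of -2.81 ± 0.16. DPM3, a stabilising subunit of dolichol-phosphate mannose synthase, had an interaction of -3.07 ± 0.20 and of -1.33 with offsets, which ended its Huh-7 call.

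CENPW, a centromere protein, had 13.7, 10.7 and 10.7 CPM in HCC-LM3 WT and 5.78, 5.83 and 7.05 in KO, against 8.23, 8.71 and 5.37 in Huh-7 WT and 15.0, 18.2 and 17.8 in KO. Its interaction was -2.08 ± 0.23, and -1.35 with offsets. GCSH, the lipoyl-carrying protein of the glycine cleavage system, fell from 35.2, 36.2 and 34.1 CPM to 16.2, 16.4 and 18.5 in HCC-LM3 and rose from 10.3, 11.6 and 9.83 to 18.4, 17.8 and 18.2 in Huh-7, with an interaction of -1.83 ± 0.16. The groups of CENPW and GCSH were separate in both lines. CGA, the common alpha subunit of the glycoprotein hormones, was abundant in HCC-LM3, with 90.3, 78.9 and 78.7 CPM in WT and 45.8, 47.4 and 51.1 in KO, against 0.304 to 2.07 CPM in the Huh-7 libraries, and its interaction was -2.35 ± 0.34. The interactions of YIPF6, a Golgi membrane protein, TPRKB, a subunit of the complex that modifies transfer RNA, and RAB42, a small GTPase, were -1.91, -1.73 and -2.12. With offsets they were -3.47, -1.29 and -0.71, and RAB42 lost its Huh-7 call. When libraries were scaled by totals alone, 5 of the 12 named genes of this class kept opposite signs with both calls; MARCKSL1, CENPW, YIPF6, RAB42, TPRKB, CGA and GCSH did not.

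**Figure D3:**
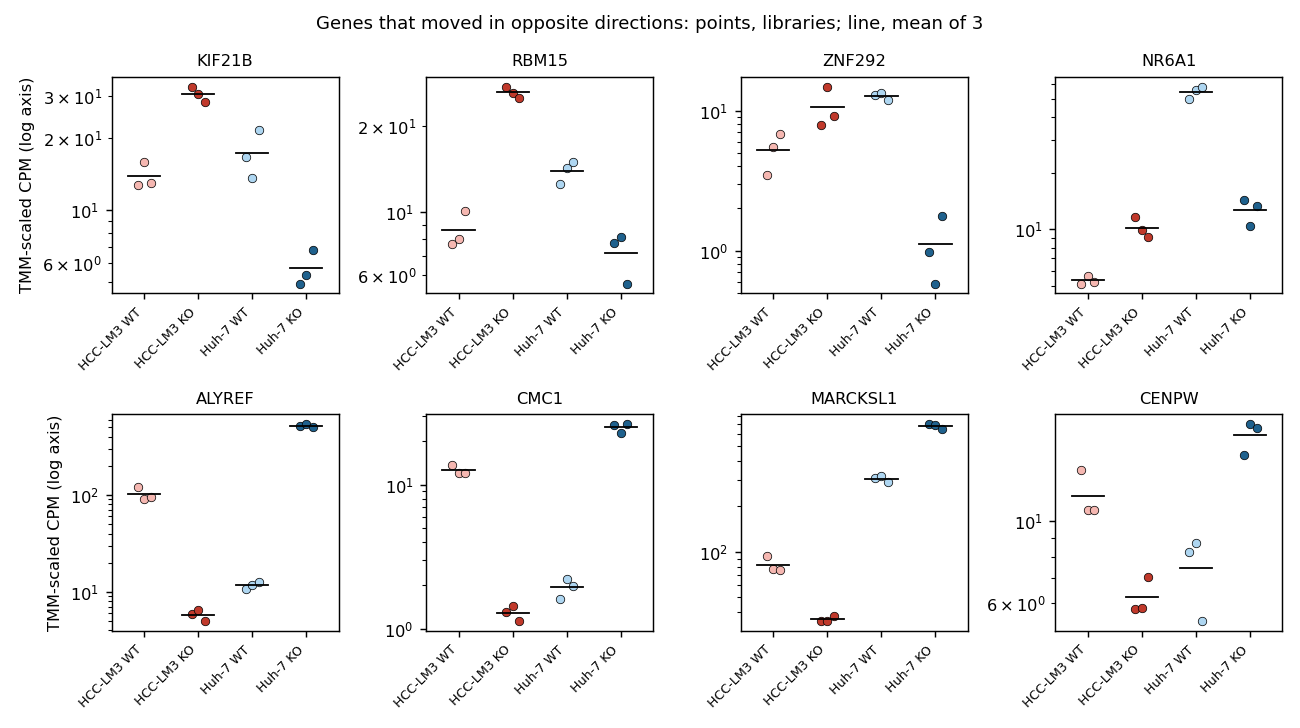
TMM-scaled CPM on a log axis for 8 genes that moved in opposite directions, with 1 point per library and a line at the mean of 3. In the upper row KO lies above WT in HCC-LM3 and below it in Huh-7, and in the lower row the reverse, with ALYREF falling from 90.1 to 120 CPM to 5.02 to 6.48 CPM in HCC-LM3 and reaching 499 to 537 CPM in Huh-7 KO.

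In 734 genes only the HCC-LM3 change passed. KLF2, a transcription factor of quiescence and flow response, had 0.349, 0.522 and 0.244 CPM in HCC-LM3 WT and 1.22, 1.28 and 1.46 in KO, and its interaction was 1.60 ± 0.31 (adjusted p = 4.32e-05). In Huh-7 KLF2 had 14.2, 17.5 and 18.5 CPM in WT and 17.8, 21.7 and 17.8 in KO, which overlapped, although with offsets its Huh-7 change of -0.67 passed. PCDH1, an adhesion protein of the protocadherin family, rose from 4.75, 3.45 and 4.34 CPM to 9.73, 9.76 and 10.2 in HCC-LM3, with 4.94, 4.95 and 6.69 in Huh-7 WT and 4.53, 7.11 and 4.84 in KO. Its interaction was 1.26 ± 0.26 and 0.77 with offsets. PAQR9 (1.98 ± 0.61) stayed under 0.3 CPM in HCC-LM3, and with offsets its Huh-7 change of 0.76 passed. The interaction calls of KREMEN2 (0.88) and EFNA2 (0.89) were lost in 14 and 3 of the 22 alternative fits, and that of KREMEN2 also at p under 0.01. With offsets the Huh-7 change of EFNA2 (-0.34) passed. On the negative side EXOSC6, a core subunit of the RNA exosome, had 1.84, 2.69 and 3.97 CPM in HCC-LM3 WT and 0 counts in every KO library, at least 30.1-fold lower against a floor of 3 counts per library. EXOSC6 had 16.3, 9.89 and 14 CPM in Huh-7 WT and 10.3, 8.62 and 19.1 in KO. With offsets its Huh-7 change of 1.44 passed, which put EXOSC6 among the opposite genes. C5orf24 (-0.79), DTD2 (-0.74), ZNG1E (-0.91) and SLC35G1 (-1.08) fell by close to 2-fold in HCC-LM3. With offsets C5orf24, DTD2 and SLC35G1 had interactions of -2.30, -1.41 and -1.97, and ZNG1E -1.23. Under the offsets the Huh-7 changes of all 4 passed as rises (1.59, 0.69, 1.22 and 0.71 in the same order), which put them among the opposite genes. All 4 interaction calls were lost with library totals.

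In 8693 genes only the Huh-7 change passed, some of them with a group at 0. FMC1-LUC7L2, the readthrough gene of FMC1 and LUC7L2, had 13.8, 19.0 and 9.27 CPM in Huh-7 WT and 0 counts in all KO libraries, at least 43.1-fold lower, against 5.07, 7.36 and 5.44 CPM in HCC-LM3 WT and 5.07, 3.69 and 3.70 in KO. FMC1, an assembly factor of ATP synthase that lies within the same locus, rose in Huh-7 from 12.8, 12.3 and 11.2 CPM to 87.7, 88.0 and 76.0, with an interaction of -3.17 ± 0.23. LUC7L2, a splicing factor at the other end of the locus (chosen after its values were seen), had 21.3, 24.3 and 24.5 CPM in Huh-7 WT and 4.14, 4.43 and 5.28 in KO, a fall of the opposite sign to FMC1. Reads shared by these overlapping genes could have been divided differently between libraries. NMNAT3, a mitochondrial enzyme of NAD synthesis, had 36.3, 37.7 and 40.7 CPM in Huh-7 WT and 1.68, 0 and 0.110 in KO, and its interaction was 6.34 ± 0.77 (adjusted p = 7.06e-05). In HCC-LM3 NMNAT3 had 3.90, 9.01 and 7.91 CPM in WT and 8.22, 12.3 and 8.48 in KO, which overlapped. HAMP, which encodes the iron hormone hepcidin, rose in Huh-7 from 4.13, 4.82 and 4.56 CPM to 50.6, 47.2 and 45.3 and had 0 to 0.0522 CPM in HCC-LM3, where no fold is given. CD109 and TANC2 had 22.6 to 64.7 CPM in HCC-LM3, 0.146 to 0.402 CPM in Huh-7 WT and 0 counts in every Huh-7 KO library. The Huh-7 WT libraries held only 11, 6 and 6 counts of CD109 and 4, 8 and 7 of TANC2. A floor of 3 counts per library is 0.325 CPM in Huh-7 KO, above the WT means of 0.323 and 0.284, so no fold is given for Huh-7. With offsets the Huh-7 calls of CD109 and TANC2 ended, and so did the interaction call of CD109.

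Of the genes that moved the same way in both lines, APAF1, the scaffold of the apoptosome, fell from 10.1, 15.3 and 14.5 CPM to 9.52, 9.69 and 9.29 in HCC-LM3 and from 7.87, 7.44 and 7.29 to 0.592, 0.233 and 0.440 in Huh-7. Its interaction was 3.63 ± 0.36 and 2.01 with offsets. PDCD4, an inhibitor of the initiation helicase eIF4A, fell from 41.1, 39.7 and 39.1 CPM to 29.2, 35.5 and 31.6 in HCC-LM3 and from 6.84, 7.57 and 7.44 to 0.394, 0.932 and 0.330 in Huh-7, with an interaction of 3.42 ± 0.30 (2.27 with offsets). GPSM2, an organiser of spindle orientation, had an interaction of 3.49 ± 0.31 (1.98 with offsets). Among genes higher in both lines, FTL, the light chain of the iron store ferritin, had 1628, 1249 and 1260 CPM in HCC-LM3 WT and 1757, 1746 and 1829 in KO, and 20366, 19965 and 20209 in Huh-7 WT and 118410, 119760 and 112780 in KO. Its interaction was -2.17 ± 0.15 and -0.78 with offsets. GUK1, which makes GDP from GMP, had -2.23 ± 0.15, and -0.76 with offsets. These HCC-LM3 changes were small and rested on few libraries: all 5 did not pass without HCC-LM3 WT 2, those of APAF1, PDCD4, FTL and GUK1 also not without WT 3 or KO 3, and those of PDCD4 and FTL not without KO 1. The offsets ended the HCC-LM3 calls of APAF1, GPSM2, PDCD4 and GUK1.

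Ribosomal protein mRNAs shared the sign of their interaction. Over all tested genes 37.7% had a positive call and 23.9% a negative one, and the list counts from here on are to be read beside these shares. List counts with offsets are to be read beside 4312 positive and 3800 negative calls among 16537 genes, with a median of 0.094. All 32 tested small-subunit genes and 44 of 45 large-subunit genes had a negative call and none a positive one, with medians of -1.97 and -1.94, against 0.39 over all tested genes. In Huh-7 KO 32 and 44 of them rose, and in HCC-LM3 KO 3 and 12 rose and none fell. The medians were -0.76 and -0.81 with offsets (31 and 40 negative calls) and -1.01 and -0.97 with library totals (30 and 39), and the positive large-subunit calls were then 2 and 3. RPS27 had 603, 445 and 469 CPM in HCC-LM3 WT and 557, 535 and 586 in KO, and 926, 814 and 896 in Huh-7 WT and 5922, 5636 and 5391 in KO, with an interaction of -2.54 ± 0.15 and -1.05 with offsets. RPL35A had 626, 462 and 478 CPM in HCC-LM3 WT and 546, 539 and 592 in KO, against 349, 341 and 302 in Huh-7 WT and 2118, 1911 and 1823 in KO, with an interaction of -2.46 ± 0.16. RPLP0, of the ribosomal stalk, went from 4020, 3221 and 3209 CPM to 4360, 4409 and 4530 in HCC-LM3 and from 4189, 3803 and 4020 to 23623, 23029 and 22221 in Huh-7, an interaction of -2.17 ± 0.15 (-1.26 with offsets). In each of these genes HCC-LM3 WT 1 was above the other WT libraries of its line, and the Huh-7 KO libraries were separate from all others.

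Messenger RNAs of ribosomal proteins and elongation factors typically begin with a run of pyrimidines, the 5′ terminal oligopyrimidine tract through which mTOR signalling controls their translation. The windows below, from 60 bases before to 10 bases from the annotated start, are shown for 4 ribosomal protein genes, the elongation factor gene EEF2, and 3 long genes of the opposite class, EIF4G1, MYH9 and TLN1; they were chosen after the values were seen. They are RefSeq sequences on GRCh38.p14, written 5′ to 3′ on the strand of the gene, and capitals mark the longest unbroken run of C or T that touches the 5 bases on either side of the start.
RPLP0, chr12:120201102-120201171, minus strand: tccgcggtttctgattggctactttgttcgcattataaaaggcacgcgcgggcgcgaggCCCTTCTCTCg
RPS27, chr1:153990702-153990771, plus strand: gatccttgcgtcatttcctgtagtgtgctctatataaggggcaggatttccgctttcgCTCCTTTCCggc
RPL35A, chr3:197950130-197950199, plus strand: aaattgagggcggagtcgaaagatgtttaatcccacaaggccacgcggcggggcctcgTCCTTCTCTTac
RPS29, chr14:49598701-49598770, minus strand: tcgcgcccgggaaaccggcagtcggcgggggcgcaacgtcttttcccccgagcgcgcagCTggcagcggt
EEF2, chr19:3985454-3985523, minus strand: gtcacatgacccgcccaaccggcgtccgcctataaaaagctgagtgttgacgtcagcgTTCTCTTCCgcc
EIF4G1, chr3:184314546-184314615, plus strand: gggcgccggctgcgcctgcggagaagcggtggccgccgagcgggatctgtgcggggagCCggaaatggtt
MYH9, chr22:36387958-36388027, minus strand: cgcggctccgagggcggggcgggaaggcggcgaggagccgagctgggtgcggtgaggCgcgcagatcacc
TLN1, chr9:35732186-35732255, minus strand: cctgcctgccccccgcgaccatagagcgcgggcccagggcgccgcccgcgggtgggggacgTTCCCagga

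A run of at least 8 C or T bases at this place, searched on the strand of the gene only, was found in 2990 of 27305 promoters of the table. It was found in 20 of the 25 small-subunit genes matched by symbol, in 24 of 36 large-subunit genes and in 9 of 33 translation factor genes. Among lists of long genes, 6 of 24 large cytoskeletal genes (25%) and 7 of 29 chromatin coactivators and remodelers (24.1%) held it. So did 6 of 26 extracellular matrix genes (23.1%) and 1 of 12 PI3K-related kinases and partners (8.33%), against 10.95% of all promoters. The 3 long genes shown, which lack such a run, therefore do not stand for these lists. Genes with a positive interaction held it in 10.9% and genes with a negative one in 11.6%, close to the share of all promoters. EEF2, which carries a run of 9 bases, had mean levels of 3579 and 4938 CPM in HCC-LM3 WT and KO and of 4452 and 5797 in Huh-7 WT and KO, an interaction of 0.08 ± 0.14 (adjusted p = 0.658; 1.04 with library totals). EEF1A1, also with a run of 9 bases, had an interaction of -0.01 ± 0.15. It was -1.19 with offsets, which used the deposited length of 4441 bases. RPS29, of the small subunit, has a run of 2 bases in its window and an interaction of -2.47 ± 0.18 (-1.47 with offsets). Only 1 start per gene was searched. RPS29 spans 49570984 to 49599164 on chromosome 14 and overlaps LRR1, so its main start may lie outside this window. EEF2 and EEF1A1, each with a run of 9 bases, had no called interaction in the fit reported here. With library totals the interaction of EEF1A1 was 0.95. Whether run length and interaction are related was not tested.

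Translation factors and ribosome assembly factors were mixed. Of 42 translation factors 23 had a positive and 13 a negative interaction (median 0.62, and 0.07 with offsets). EIF4G1, the scaffold of the cap-binding complex, rose from 817, 703 and 739 CPM to 952, 901 and 969 in HCC-LM3 and fell from 934, 990 and 1090 to 325, 299 and 318 in Huh-7, with an interaction of 2.0 ± 0.14 (1.31 with offsets). Its HCC-LM3 call was lost with offsets, with library totals and without HCC-LM3 WT 2, WT 3, KO 1 or KO 3. EEF2K, the kinase that inhibits EEF2, moved the same way as EIF4G1 in each line, with 41.8, 45.9 and 41.3 CPM in HCC-LM3 WT, 64.2, 60.6 and 57.9 in KO, 22.7, 20.4 and 23.9 in Huh-7 WT and 5.52, 4.54 and 6.26 in KO (interaction 2.53, and 1.39 with offsets), in all alternatives. EIF3I, a subunit of initiation factor 3, did the reverse with -2.17 ± 0.14 (-1.35 with offsets), although its HCC-LM3 call was lost with DESeq2 size factors and without HCC-LM3 WT 1, KO 1 or KO 2, while EIF3A of the same factor had 3.13 ± 0.20 (1.39 with offsets). Of 56 ribosome biogenesis factors 36 were positive and 15 negative, with a median of 1.01 that was 0.13 with offsets. NCL, the abundant nucleolar protein nucleolin, fell in both lines, from 211, 210 and 247 CPM to 156, 176 and 163 in HCC-LM3 and from 307, 389 and 303 to 48.8, 34.3 and 41.8 in Huh-7 (interaction 2.56 ± 0.16, and 1.59 with offsets, which with the replicate block ended its HCC-LM3 call). The small box H/ACA proteins NHP2 (-2.12) and NOP10 (-2.31), chosen after their values were seen and given without offset values, were negative.

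The machinery of m6A and ribosomal RNA methylation, to which METTL5 belongs, had 20 positive and 7 negative calls among 32 tested genes. All tested genes had 37.7% positive and 23.9% negative calls, and with offsets 4312 and 3800 of 16537. The median of the list was 1.52 (0.33 with offsets, 14 positive and 10 negative). Besides RBM15, the readers IGF2BP1 (1.76, and 0.56 with offsets) and IGF2BP3 (3.20, and 2.0 with offsets) and the writer subunit ZC3H13 (2.81, and 0.84 with offsets) were positive. IGF2BP3 had 14.6, 28.0 and 24.8 CPM in HCC-LM3 WT and 15.9, 16.9 and 15.1 in KO, with overlap, against 15.3, 16.8 and 19.7 in Huh-7 WT and 1.77, 1.05 and 1.10 in KO. The other rRNA methyltransferase that partners with TRMT112, BUD23, was negative with -1.56 (chosen after its value was seen, and given without an offset value).

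Mitochondrial genes followed the ribosomal proteins in part. Of 53 nuclear subunits of oxidative phosphorylation 46 had a negative interaction and 4 a positive one, with a median of -1.61 (-0.56 with offsets, 41 negative). NDUFB3, of complex I, fell in HCC-LM3 from 12.1, 11.2 and 10.4 CPM to 7.80, 7.97 and 8.54 and rose in Huh-7 from 11.4, 12.4 and 9.52 to 37.9, 37.6 and 31.1, keeping opposite signs in all alternatives (interaction -2.15 ± 0.18, and -1.29 with offsets). The 13 mitochondrially encoded mRNAs divided into 6 negative and 3 positive calls, and their median of -0.44 became 0.29 with offsets and 0.51 with library totals. MT-ND5, the longest of the named ones, fell in Huh-7 from 4581, 3670 and 5037 CPM to 1610, 1697 and 1571, while MT-CO3 rose from 11694, 12194 and 10910 to 27495, 28295 and 27114. Their interactions were 1.68 and -1.17, the second of which was -0.40 with offsets.

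Stress response genes were divided. Of 35 integrated stress response targets 20 were positive and 9 negative (median 0.49, and 0.43 with offsets), and 6 rose in HCC-LM3 and fell in Huh-7 (4 with offsets). AARS1, the alanyl-tRNA synthetase, had 334, 270 and 248 CPM in HCC-LM3 WT and 429, 433 and 444 in KO, and 448, 482 and 470 in Huh-7 WT and 298, 280 and 313 in KO, an interaction of 1.27 ± 0.14. The groups did not overlap in either line, but the opposite class of AARS1 was lost with DESeq2 size factors. The glutamine transporter SLC1A5 (1.17 ± 0.15) and the secreted hormone STC2 (1.27 ± 0.15, and 0.56 with offsets) had the same signs in each line, and both lost their class with DESeq2 size factors and in the DESeq2 Wald test, STC2 also with offsets. The transcription factor ATF4 had -1.14 and its partner DDIT3 -1.35 (chosen after their values were seen, and given without offset values). Of 26 unfolded protein response genes 18 were positive and 8 negative, with a median of 1.38, which was 1.12 with the 1 gene that had a group at 0 counts set at its bound and 0.40 with offsets. HYOU1, a large chaperone of the endoplasmic reticulum, rose from 221, 196 and 186 CPM to 297, 283 and 289 in HCC-LM3 and fell from 335, 318 and 368 to 104, 94.3 and 111 in Huh-7, in all alternatives (interaction 2.24 ± 0.14). SDF2L1, its small neighbour in the folding machinery, did the reverse with -2.28 ± 0.17, and the offsets ended its Huh-7 call (interaction -0.81).

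Genes of growth signalling and invasion included opposite members, which over all tested genes made up 4.31% with this sign. Of 25 immediate early and MAPK feedback genes 12 were positive and 5 negative, with a median of 0.28 that was -0.13 with DESeq2 size factors. Of these 25 genes 6 rose in HCC-LM3 KO and fell in Huh-7 KO (4 with offsets). JUN, an AP-1 transcription factor, had 90.8, 77.6 and 78.1 CPM in HCC-LM3 WT and 140, 148 and 154 in KO, and 71.4, 70.8 and 73.0 in Huh-7 WT and 48.2, 45 and 50.8 in KO, an interaction of 1.42 ± 0.13 (adjusted p = 2.11e-11). All 3 libraries moved in each line, yet the Huh-7 fall of JUN did not pass with DESeq2 size factors or in the DESeq2 Wald test. FOSL2, another AP-1 member, had 184, 191 and 189 CPM in HCC-LM3 WT, 266, 251 and 253 in KO, 20.4, 19.6 and 24.7 in Huh-7 WT and 10.7, 9.20 and 10.2 in KO, and kept its class in all alternatives (interaction 1.54, and 0.65 with offsets). Of 23 mesenchymal and invasion genes 12 were positive and 3 negative (median 0.94, and 0.70 with offsets), with 5 of the opposite class (6 with offsets, and 1 of the reverse class). CDH2, the mesenchymal N-cadherin, rose from 16.4, 19.7 and 17.9 CPM to 24.6, 21.1 and 23.5 in HCC-LM3 and fell from 29.6, 32.5 and 30.7 to 4.73, 4.31 and 4.18 in Huh-7 (interaction 3.17 ± 0.18, and 2.02 with offsets), but its HCC-LM3 rise did not pass with library totals or without WT 3, KO 1 or KO 3 of that line. ITGA5, the fibronectin receptor subunit, rose from 244, 219 and 230 CPM to 434, 445 and 408 in HCC-LM3, with 108, 82.4 and 134 in Huh-7 WT and 80.0, 79.7 and 82.1 in KO (interaction 1.32 ± 0.16), and its Huh-7 change did not pass with offsets, DESeq2 size factors or the DESeq2 Wald test.

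Extracellular matrix genes were positive in 29 of 36 and negative in 2, with a median of 1.91 (0.93 with offsets, 21 positive), and 9 were of the opposite class (4 with offsets). AGRN, a heparan sulfate proteoglycan of basement membranes, had 499, 501 and 470 CPM in HCC-LM3 WT and 825, 853 and 850 in KO, and 575, 442 and 671 in Huh-7 WT and 115, 131 and 117 in KO. Its interaction of 3.0 ± 0.16 (adjusted p = 1.18e-16) was 2.07 with offsets, and its class held in all alternatives. HSPG2, the related proteoglycan perlecan, had 129, 142 and 138 CPM in HCC-LM3 WT, 221, 225 and 219 in KO, 290, 220 and 417 in Huh-7 WT and 34.3, 39.4 and 37.3 in KO (interaction 3.76 ± 0.25, and 2.30 with offsets, which ended its HCC-LM3 call, as did leaving out HCC-LM3 WT 1 or WT 3). NID2, a linker of laminin and collagen, had 8.56, 10.8 and 11 CPM in HCC-LM3 WT and 13.6, 14.5 and 12.9 in KO, and went from 1.39, 1.09 and 1.37 to 0.0986, 0 and 0 in Huh-7, and its HCC-LM3 call was lost with library totals and without HCC-LM3 WT 1, KO 1, KO 2 or KO 3. Fibroblast markers (7 genes) summed to 12.4 to 20 TPM in HCC-LM3, 8.16 to 8.34 in Huh-7 WT and 0.780 to 2.04 in Huh-7 KO, and their part in the matrix values was not tested.

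Very long genes of the nucleus and cytoskeleton were positive without exception in the fit reported here. All 41 chromatin coactivators and remodelers, all 27 large cytoskeletal genes and all 14 PI3K-related kinases and partners had a positive interaction, with medians of 2.81, 2.72 and 2.26 and median lengths of 8430, 9697 and 8193 bases. With offsets the medians were 1.18, 1.20 and 0.53, and the positive calls 33, 21 and 7. SMARCA4, the ATPase of the BAF remodelling complex, had 133, 120 and 116 CPM in HCC-LM3 WT and 169, 166 and 168 in KO, and 215, 210 and 243 in Huh-7 WT and 42.1, 43.1 and 46.6 in KO (interaction 2.79 ± 0.13, and 2.15 with offsets), with opposite signs in all alternatives. PLEC, the cross-linker plectin, rose from 1026, 1028 and 1033 CPM to 1532, 1484 and 1580 in HCC-LM3 and fell from 177, 150 and 236 to 17.1, 14.8 and 15.4 in Huh-7 (4.15 ± 0.18). MYH9, the non-muscle myosin heavy chain whose start is shown above, rose from 770, 652 and 681 CPM to 889, 869 and 927 in HCC-LM3 and fell from a mean of 555 CPM to 65.0, 64.4 and 60.9 in Huh-7 (3.48 ± 0.15). The offsets gave PLEC 2.63 and MYH9 2.52 and ended the HCC-LM3 call of both, and that of MYH9 was also lost without HCC-LM3 WT 2. TLN1, the integrin adaptor talin, held its class in all alternatives (2.94 ± 0.15, and 1.85 with offsets), as did RPTOR, the scaffold of mTOR complex 1, which had 70.2, 60.8 and 62.6 CPM in HCC-LM3 WT, 91.9, 89.7 and 88.0 in KO, 64.2, 53 and 83.6 in Huh-7 WT and 18.9, 19.0 and 21.6 in KO (2.23 ± 0.17, and 1.32 with offsets).

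**Figure D4:**
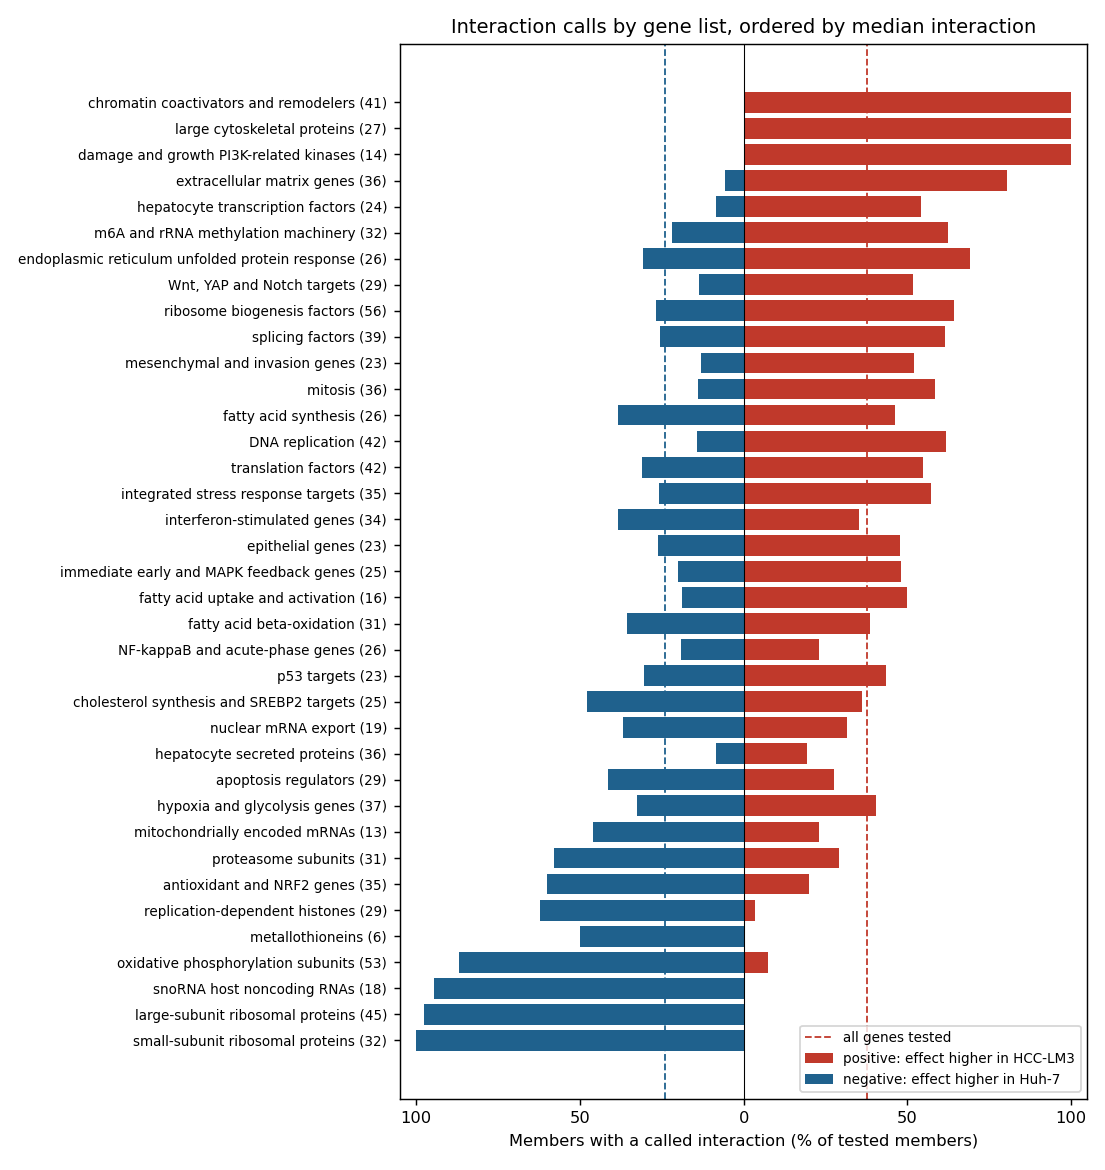
Share of tested members of each gene list (number in brackets) with a positive (red, to the right) or negative (blue, to the left) interaction call, ordered by median interaction. Dashed lines mark all tested genes, 37.7% positive and 23.9% negative. Ribosomal protein, snoRNA host and oxidative phosphorylation genes lie at the negative end, and the 3 lists of very long genes at the positive end.

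Hepatocyte transcription factors had more positive than negative calls, as did all tested genes (37.7% positive and 23.9% negative). Of 24 hepatocyte transcription factors 13 were positive and 2 negative, with a median of 1.80, which was 1.57 with the 6 genes that had a group at 0 counts set at their bounds and 1.20 with offsets. HNF4A, the central regulator of hepatocyte identity, had 30.2, 29.8 and 26.1 CPM in HCC-LM3 WT, 38.9, 39.1 and 31.9 in KO, 332, 323 and 367 in Huh-7 WT and 211, 197 and 210 in KO (1.07 ± 0.14, and 0.27 with offsets), and its HCC-LM3 call was lost with offsets, with library totals and without HCC-LM3 WT 3, KO 1 or KO 2. Of 36 hepatocyte secreted proteins 26 had no call, and 14 had a group at 0 counts. Complement C3, made by both lines, rose from 227, 234 and 225 CPM to 380, 404 and 355 in HCC-LM3 and fell from 488, 416 and 603 to 163, 149 and 159 in Huh-7, with an interaction of 2.41 ± 0.15, and CFB of the same cascade had 1.63 ± 0.18. C3 and CFB kept opposite signs in all alternatives.

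In fatty acid synthesis 12 of 26 genes were positive and 10 negative (median 0.77, and 0.28 with offsets), beside 37.7% and 23.9% of all tested genes. FASN, the fatty acid synthase, had 398, 359 and 351 CPM in HCC-LM3 WT and 485, 556 and 517 in KO, and 1295, 1050 and 1536 in Huh-7 WT and 251, 267 and 269 in KO (2.79 ± 0.16, and 1.74 with offsets, which ended its HCC-LM3 call). SCD, the desaturase that follows it, rose from 798, 789 and 775 CPM to 987, 1101 and 1008 in HCC-LM3 and fell from 966, 908 and 999 to 337, 298 and 315 in Huh-7 (1.99 ± 0.14, and 0.71 with offsets), with opposite signs in all alternatives. In cholesterol synthesis 9 of 25 were positive and 12 negative, with a median of -0.05 that was 0.91 with library totals. DHCR7, the last enzyme of the pathway, went the other way from FASN: it fell from 156, 123 and 129 CPM to 79.7, 98.4 and 95.8 in HCC-LM3 and rose from 665, 492 and 716 to 1602, 1633 and 1649 in Huh-7 (-1.96 ± 0.17), in all alternatives. The squalene synthase FDFT1 had the same signs as DHCR7 (-1.68 ± 0.14), although its HCC-LM3 call was lost without HCC-LM3 KO 1.

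Fatty acid oxidation (12 positive and 11 negative of 31, median 0.17) and hypoxia and glycolysis genes (15 and 12 of 37, median -0.24) were divided, and their medians changed sign between scalings. PFKFB3, which drives glycolytic flux, kept opposite signs in all alternatives, with 40.2, 36.6 and 38.2 CPM in HCC-LM3 WT, 52.2, 51.8 and 51.8 in KO, 98.0, 84.5 and 110 in Huh-7 WT and 40.4, 37.5 and 38.7 in KO (1.76 ± 0.14). HK1, the first enzyme of glycolysis, fell in HCC-LM3 from 6.72, 6.48 and 5.59 CPM to 1.87, 2.59 and 1.91, and in Huh-7 had 0 counts in every WT library and 2, 8 and 3 counts in KO. Antioxidant genes were negative in 21 of 35 and positive in 7 (median -0.70, but 0.26 with library totals). Thioredoxin (TXN), the small disulfide reductase, had 216, 181 and 190 CPM in HCC-LM3 WT, 154, 143 and 180 in KO, 92.1, 90.3 and 76.7 in Huh-7 WT and 329, 303 and 300 in KO (-2.15 ± 0.14), and its HCC-LM3 call was lost with offsets, with DESeq2 size factors and without HCC-LM3 KO 1 or KO 2.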

How the data were processed

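RNA-seq of 12 libraries was compared. Per the file headers, the authors deposited 1 table with an expected count and a TPM per gene and library and a gene length. Expected counts, as deposited, carry no scaling and were rounded to whole numbers here. TPM, as deposited by the authors, served only for marker sums. The notes on processing by the submitters list Bowtie 0.12.2 and the builds mm8 and mm9, which are mouse builds, although the identifiers are human. Which counting tool, strand setting, annotation and human build were used is not given in the sources used here, so overlapping genes and near-identical copies, ribosomal protein pseudogenes among them, are uncertain.

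Genes were kept by filterByExpr, scaled by TMM and fitted with edgeR 4.0.16 (R 4.3.3; robust quasi-likelihood, 1 mean per group, 8 residual degrees of freedom). Calls required an adjusted p under 0.05 (Benjamini-Hochberg, two-sided, 16537 genes). A standard error is the log2 value divided by the root of its F statistic. For 1 gene, 3 libraries against 3 cannot go below p = 0.1 in an exact permutation test. Alternatives were DESeq2 1.42.0 (size factors and Wald test), limma 3.58.1 (voom), library totals, upper-quartile factors, other filters, p under 0.01, a replicate block, offsets for GC content and length (splines of 5 degrees of freedom per library) with and without the block, and 12 fits without 1 library each. Where a single gene is said to keep or lose a class or call, the 22 alternative fits are meant, and p under 0.01 is left out. At p under 0.01 the HCC-LM3 calls of WNK2, TFPI, EIF4G1 and EIF3I, among others, were also lost. GENCODE 29 on GRCh38 held 99.5% of the identifiers and gave GC content and gene overlaps.

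Named genes were the first 12 protein-coding opposite genes per sign by the smaller of both changes (mean of at least 5 CPM, no overlap in either line), the first 5 genes per direction led by each line, 4 per sign moving the same way, and up to 4 called genes per list, opposite ones first. Members and the 37 gene lists were chosen with earlier results of these data known, and lists were given by counts and medians with no set test. Promoter windows and starts came from RefSeq. Floors of 3 counts cover counting error only.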

Additional observations from a re-analysis of the deposited data

Results flagged for a closer look

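The knockout effects of the lines differed by the interaction test in 10186 genes, and 950 genes moved in opposite directions with both changes called. For the named genes the log2 difference of the effects, with HCC-LM3 higher and Huh-7 lower, was 5.66 for ZBTB20, 4.51 for ZNF292, 3.26 for TFPI, 3.03 for NR6A1, 2.74 for KIF21B, 2.55 for RBM15, 2.48 for ZNF91, 2.46 for CRISPLD2, 2.41 for SH3PXD2B, 1.97 for ZNF646 and 1.86 for RNF157. With HCC-LM3 lower and Huh-7 higher it was -9.60 for ALYREF, -6.98 for CMC1, -3.07 for DPM3, -2.81 for ANKRD54, -2.65 for PDXP, -2.36 for MARCKSL1, -2.35 for CGA, -2.12 for RAB42, -2.08 for CENPW, -1.91 for YIPF6, -1.83 for GCSH and -1.73 for TPRKB.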

How the results depend on the processing

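The count of called interactions ranged from 9847 to 10105 when 1 library was left out, and with the replicate number as a block it was 10048, with 905 opposite genes. To look for pairing, the deviations of each library from its group mean in log2 CPM were correlated between groups, over 9937 genes. For same-numbered libraries these correlations were between -0.30 and 0.19 over 18 pairs, with 3 over 0.1, so the numbers were not taken to pair samples. For differently numbered libraries the correlations of deviations ranged more widely, from -0.33 (HCC-LM3 WT 2 with KO 3) to 0.43 (HCC-LM3 WT 1 with KO 3). A source of variation shared across groups under other numbers was not tested. Library totals alone gave 9504 positive and 1574 negative calls. The HCC-LM3 count was 2622 at p under 0.01 and 2771 with offsets and the replicate block. Without 1 library the HCC-LM3 count was 2743 to 6136 (2743 without HCC-LM3 WT 3, 2832 without WT 2, 6136 without WT 1). Opposite genes numbered 507 at p under 0.01 and 605 to 972 without 1 library (605 without HCC-LM3 KO 1). Those higher in HCC-LM3 numbered 396 at p under 0.01 and 429 to 722 (429 without KO 1, 433 without WT 3), and those lower in HCC-LM3 numbered 111 at p under 0.01, 493 with offsets, 456 with offsets and block, and 154 to 258 (154 without KO 2). The causes were not tested. Of 4531 values of 197 named genes under 23 alternatives, 4405 kept direction and call, 112 lost the call and 14 changed sign. With library totals the interactions of C5orf24 (0.15), DTD2 (0.21), ZNG1E (0.041), SDHD (0.0089), CCNB1 (0.48) and CYCS (0.15) were positive. With offsets, without and with the block, MDM2 had -0.20 and -0.20, PI4KA -0.16 and -0.17, MT1X 0.24 and 0.24, and MT2A 0.56 and 0.55. Among genes under 1 CPM in a line, 1011 of 3739 such genes in HCC-LM3 and 604 of 2870 in Huh-7 were called.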

Other observations

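Of 18 snoRNA host genes, which carry the guides of ribosomal RNA modification in their introns, 17 had a negative interaction and none a positive one, with a median of -1.72 (-1.22 with offsets, 16 negative, and -0.76 with library totals, with 15 negative and 2 positive). DANCR fell in HCC-LM3 from 50.9, 39.8 and 40.6 CPM to 32.4, 29.8 and 35.4 and rose in Huh-7 from 256, 219 and 234 to 645, 721 and 647, with opposite signs in all alternatives (interaction -1.93 ± 0.15, and -0.93 with offsets). Replication-dependent histone genes were negative in 18 of 29 and positive in 1, but in 4 and 5 with offsets, and their mRNAs lack poly(A) tails.

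Interferon-stimulated genes (12 positive and 13 negative of 34) and NF-kappaB genes (6 and 5 of 26) showed no common direction. ISG15, a ubiquitin-like modifier, fell in HCC-LM3 from 53.7, 42.6 and 42.1 CPM to 32.0, 35.5 and 35.8 and rose in Huh-7 from 32.4, 30.6 and 28.5 to 150, 152 and 142 (-2.70 ± 0.14, and -1.12 with offsets), in all alternatives. CSF1, the macrophage growth factor, did the reverse, from 20.6, 15.7 and 16.9 CPM to 26.2, 26.0 and 27.8 in HCC-LM3 and from 22.4, 20.6 and 23.1 to 9.76, 11.2 and 10.7 in Huh-7 (1.65 ± 0.17). Among cell cycle genes, 21 of 36 mitosis genes were positive and 5 negative (median 0.84), but 9 and 12 with offsets (0.18). The mitosis genes mostly fell in both lines. In HCC-LM3 KO 21 fell and 0 rose (median -0.45), and in Huh-7 KO 27 fell and 5 rose (median -1.20). Over all tested genes 12.9% fell in HCC-LM3 KO and 43.2% in Huh-7 KO. Of 42 replication genes 26 were positive and 6 negative (0.66), and 25 and 10 with offsets (0.42). Over all tested genes the shares of interaction calls without offsets were 37.7% positive and 23.9% negative. With offsets 4312 of 16537 were positive and 3800 negative, with a median of 0.094. GADD45A, a p53 target of growth arrest, rose from 15.2, 14.1 and 13.5 CPM to 19.0, 20.3 and 21.6 in HCC-LM3 and fell from 9.44, 12.3 and 9.67 to 3.84, 4.31 and 4.51 in Huh-7 (1.83 ± 0.21, and 2.87 with offsets), in all alternatives. NOTCH1, a receptor of cell fate decisions, had 95.2, 103 and 97.6 CPM in HCC-LM3 WT, 137, 138 and 140 in KO, 23.9, 20.8 and 27.3 in Huh-7 WT and 3.25, 2.33 and 3.08 in KO (3.53 ± 0.18, and 2.39 with offsets, which ended its HCC-LM3 call).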
